A study of Mus musculus with 2 samples.

Results

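Astrocyte and reactive gliosis genes were examined in RNA of the mouse hippocampus after deletion of *CDK5*, a kinase gene, in endothelial cells. A list of 36 gene symbols was matched to the deposited table of 55573 gene rows, and every symbol was found. The list holds 20 homeostatic genes, which serve glutamate uptake, gap junctions, water and ion transport and other resting functions of astrocytes, and 16 reactive genes, which are known to rise in gliosis. The rule matched symbols and used no measured value, although the list itself was drawn up with earlier results of these data known. Of the 36 genes, 33 had an FPKM (the count scaled by exonic length and by the library total) that reached 1 in the mutant or the control library, and these are called measured below. The other 3 were the reactive genes *Cd44*, *Osmr* and *Steap4*.

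The mutant library came from a *Cdh5-CreERT2;CDK5f/f* sample labelled as treated with Tamoxifen, and the control library from a *CDK5f/f* sample labelled as untreated. Both carry the floxed *CDK5* allele on the C57BL/6 strain. The *Cdh5* promoter drives the inducible Cre recombinase in endothelial cells, so astrocytes are not the cells targeted. The labels give the tissue as hippocampus, while the series describes its CA1 region, and they give neither the age nor the number of mice behind each library.

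Each genotype had 1 library. No value below has a replicate check, and no p-value was computed. The table held 18900847 counts for the mutant library and 19451827 for the control library. *Cdk5* had 1257 counts in the mutant library and 1261 in the control library, which does not check its loss in endothelial cells, because neurons express it too. *Xist*, the RNA of the inactive X chromosome, had 34 counts in the mutant library and 15070 in the control library, so sex, treatment and genotype cannot be told apart. The 13 choroid plexus markers were all more than 1.5-fold higher in the mutant library, with a summed FPKM of 3898 in the mutant library against 174 in the control library and no marker at 0 in either.

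Astrocytes clear glutamate and potassium from around synapses, couple to each other through gap junctions and cover blood vessels with endfeet rich in water channels. After injury, seizures or inflammation they enlarge and raise intermediate filaments, acute phase proteins and complement, a response called reactive gliosis. The JAK-STAT3 pathway, driven by cytokines of the interleukin 6 family, is a main route to this state.

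With 1 added to each FPKM, genes whose mutant value divided by the control value reached 1.5 in either direction were counted as past 1.5-fold, and log2 ratios below are on that scale. Among the 33 genes measured, 1 was past 1.5-fold higher (*Lcn2*) and 0 were past 1.5-fold lower. Of all 14778 genes measured, 3.65% were past 1.5-fold higher and 3.16% were past 1.5-fold lower. Counts divided by the library total gave a second ratio with an exact 95% interval, which covers counting error only and no difference between mice, dissections or library preparations. A single gene is called higher or lower in the mutant library below where this interval did not hold 1. The interval lay above 1 for 8 of the 33 genes, which is 24.2%, and below 1 for 12, which is 36.4%. Over all genes measured it lay above 1 for 19.7% and below 1 for 17.9%. Because deeper counts give narrower intervals, the 26 genes with at least 1000 counts summed over both libraries were also read against genes of that depth. Of these, 6 (23.1%) lay above 1, beside 22.4% of all such genes, and 9 (34.6%) lay below 1, beside 21.8%.

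**Figure D1:**
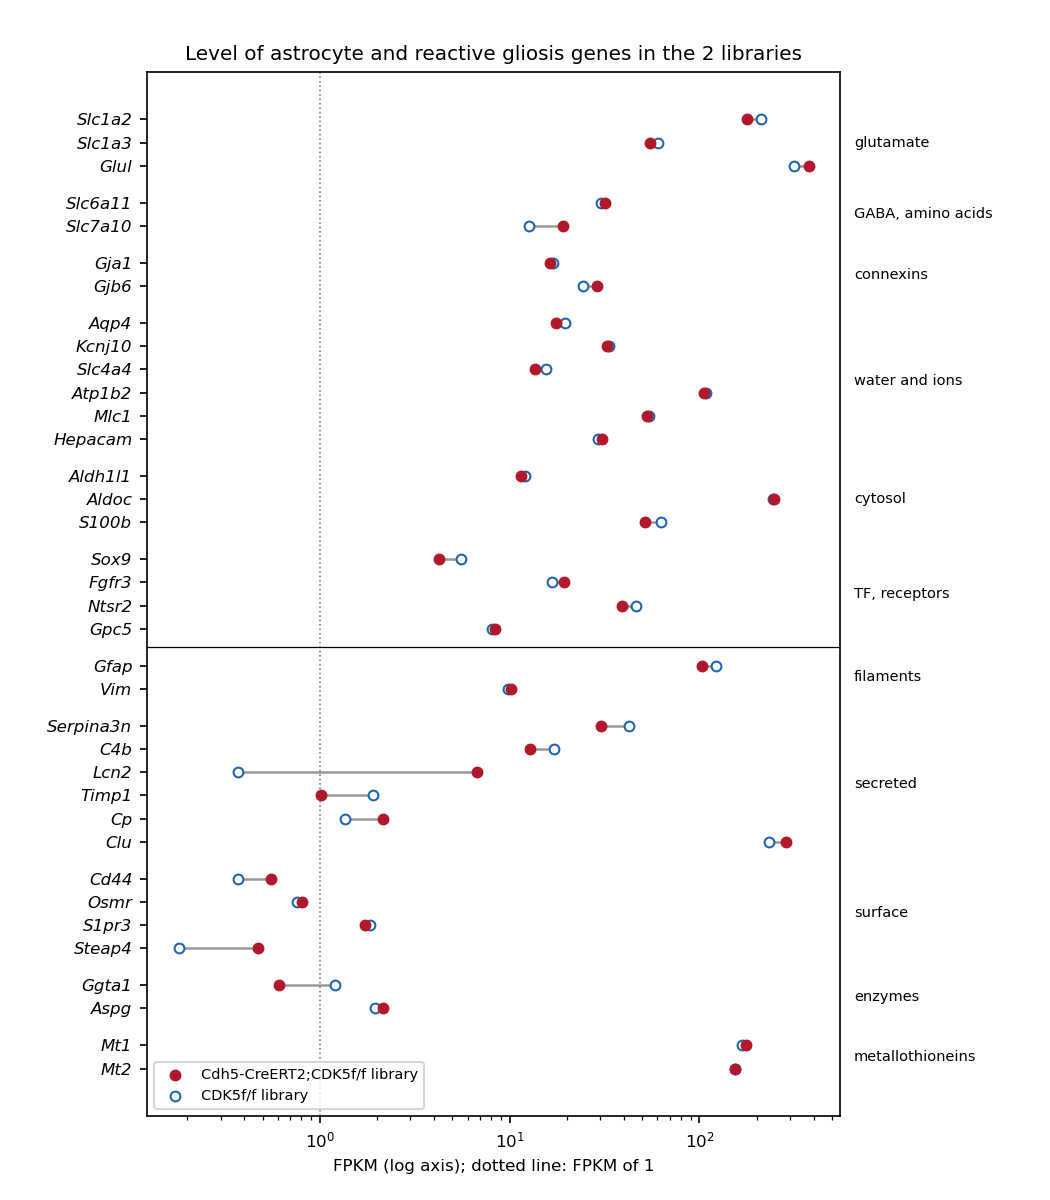
Level of each of the 36 genes as FPKM on a log axis, with filled points for the *Cdh5-CreERT2;CDK5f/f* library and open points for the *CDK5f/f* library, grouped by role with homeostatic genes above the solid line and an FPKM of 1 dotted. Most pairs of points nearly coincide, and the longest gap is that of *Lcn2*, at 6.72 in the mutant library and 0.37 in the control library.

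*Lcn2* encodes lipocalin 2, a secreted protein that binds iron-carrying siderophores and is a classic marker of reactive astrocytes. It had 333 counts in the mutant library and 19 in the control library, at an FPKM of 6.72 and 0.37. The mutant library was therefore the higher of the pair, by 18.0-fold in counts per library total (interval 11.4 to 30.3) and by 2.49 on the log2(FPKM + 1) scale. This log2 ratio ranked 21 from the top among the 14778 genes measured. *Lcn2* is also made by choroid plexus epithelium and neutrophils. The choroid plexus markers given above moved in the same direction, each with a counting interval above 1 and a median log2 ratio of 2.68, and their part in the *Lcn2* value was not tested. A list of 10 neutrophil genes, added after the values were seen, had 47 counts in the mutant library and 21 in the control library. The ratio of these sums was 2.3 (interval 1.35 to 4.06), at a summed FPKM of 3.38 and 1.54, with 4 genes at 0 in each library. Only *S100a9*, a calcium-binding protein gene of neutrophils, was measured among them. It had 21 counts in the mutant library and 11 in the control library, and its interval of 0.906 to 4.51 held 1. Under an FPKM of 1, *S100a8* had 8 counts in the mutant library and 0 in the control library, with an interval from 1.76 upward. *Ngp* had 11 and 1, with an interval of 1.65 to 487. The other neutrophil genes had at most 4 counts in either library, and their intervals held 1. The part of the neutrophil genes in the *Lcn2* value was not tested either.

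The other acute phase and secreted protein genes went both ways. *Serpina3n*, a protease inhibitor gene and one of the most strongly induced genes of reactive astrocytes, had 1182 counts in the mutant library and 1699 in the control library, at an FPKM of 30.3 and 42.32. It was lower in the mutant library at a ratio of 0.716 (interval 0.664 to 0.772). *C4b*, which encodes complement component 4, had 1385 counts in the mutant library and 1908 in the control library, a ratio of 0.747 (0.697 to 0.801). Its neighbour *C4a*, 95.965% identical over 5378 bases, went the other way, with 162 counts in the mutant library and 123 in the control library. Reads may be split between such copies, and the pair together had 1547 counts in the mutant library and 2031 in the control library, a ratio of 0.784 (0.733 to 0.838), which leaves the pair lower in the mutant library too.

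*Clu*, the gene of the secreted chaperone clusterin, was among the most abundant transcripts of the list. It had 18468 counts in the mutant library and 15486 in the control library, at an FPKM of 284 and 232, and a ratio of 1.23 (1.2 to 1.25). *Cp*, the gene of the ferroxidase ceruloplasmin, had 391 counts in the mutant library and 253 in the control library, a ratio of 1.59 (1.35 to 1.87). Both were higher in the mutant library, and both are also expressed by choroid plexus epithelium, whose part in these values was not tested. *Cp* shares 108 exon bases (1.13% of its exons) with *Hps3* on the opposite strand, which had 341 counts in the mutant library and 373 in the control library. *Timp1*, an inhibitor of matrix metalloproteinases, was rare, with 17 counts in the mutant library and 33 in the control library, a ratio of 0.53 with a wide interval of 0.277 to 0.98. *Timp1* lies inside *Syn1*, an abundant neuronal gene with which it shares no exon base, and the sources used here do not give whether the counting used strand.

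The gliosis filament *Gfap*, the standard marker of astrocytes, was lower in the mutant library. It had 8205 counts in the mutant library and 10028 in the control library, at an FPKM of 103 and 122, which is a ratio of 0.842 (0.818 to 0.867) and a log2 ratio of -0.25. In RNA of whole tissue, fewer cells of a type and less RNA per cell cannot be told apart. *Vim*, the gene of the partner filament vimentin, had 917 counts in the mutant library and 903 in the control library, and its interval of 0.952 to 1.15 held 1. Vimentin is also made by endothelium, ependyma and fibroblasts.

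Receptors and surface proteins of reactive astrocytes were weakly expressed. The hyaluronan receptor gene *Cd44* had 70 counts in the mutant library and 49 in the control library (ratio 1.47, interval 1.01 to 2.16), and the metalloreductase gene *Steap4* had 28 and 11 (2.62, 1.26 to 5.83). These were higher in the mutant library, although both stayed under an FPKM of 1 in both libraries. The oncostatin M receptor gene *Osmr* had 186 counts in the mutant library and 178 in the control library, and the sphingosine-1-phosphate receptor gene *S1pr3* had 145 and 159. The intervals of *Osmr* and *S1pr3* held 1. Among the enzymes, the galactosyltransferase gene *Ggta1* had 54 counts in the mutant library and 110 in the control library, which was lower in the mutant at a ratio of 0.505 (0.358 to 0.706). *Aspg*, an asparaginase gene, had 143 counts in the mutant library and 134 in the control library, and its interval of 0.862 to 1.4 held 1.

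Metallothioneins, small proteins that bind zinc and copper and are induced by metals and glucocorticoids, were nearly level. *Mt1* had 4139 counts in the mutant library and 4042 in the control library, a ratio of 1.05 (1.01 to 1.1). *Mt2* had 1721 counts in the mutant library and 1757 in the control library, a ratio of 1.01 (0.943 to 1.08). These genes lie 5.5 kb apart on chromosome 8, and most of the exons of *Mt2* (73.5%) are shared with *Gm45774* on the opposite strand, which had 44 counts in the mutant library and 79 in the control library. The related *Mt3*, a brain metallothionein gene outside the list, had 2145 counts in the mutant library and 2278 in the control library. Over the 13 reactive genes measured the median log2 ratio was 0.01, against 0.00 over all genes measured, with 4 intervals above 1, 5 below and 4 that held 1. Over all genes measured, 19.7% of intervals lay above 1 and 17.9% below. Of the 7 reactive genes with at least 1000 counts, 2 lay above 1 and 3 below, beside 22.4% and 21.8% of all such genes. Summed, the 16 reactive genes had 37384 counts in the mutant library and 36769 in the control library, a ratio of 1.05 (1.03 to 1.06). *Clu* alone held 18468 of these counts in the mutant library and 15486 in the control library.

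Promoters of the gene with the widest gap, *Lcn2*, of *Serpina3n*, which went the other way, and of both metallothioneins are printed from RefSeq (GRCm38.p6), since all 4 are textbook targets of inflammatory, glucocorticoid or metal signals. Each runs 5′ to 3′ within the 250 bases before the RefSeq start, without bases that GENCODE annotates as untranslated exon. Capitals mark matches on either strand to a C/EBP core (TTNNGNAA), a glucocorticoid receptor core (ACANNNTGT), a metal response element core (TGCNCNC) or a STAT core (TTCNNNGAA), and no marked matches overlap. They stand at chr2:32387798-32387989 (minus strand) for *Lcn2*, chr12:104406458-104406707 (plus) for *Serpina3n*, chr8:94178839-94179081 (plus) for *Mt1* and chr8:94172368-94172617 (plus) for *Mt2*.
Lcn2: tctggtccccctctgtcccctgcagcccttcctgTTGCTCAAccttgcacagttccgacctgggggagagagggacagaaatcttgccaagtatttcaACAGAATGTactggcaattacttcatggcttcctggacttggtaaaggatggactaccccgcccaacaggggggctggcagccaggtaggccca
Serpina3n: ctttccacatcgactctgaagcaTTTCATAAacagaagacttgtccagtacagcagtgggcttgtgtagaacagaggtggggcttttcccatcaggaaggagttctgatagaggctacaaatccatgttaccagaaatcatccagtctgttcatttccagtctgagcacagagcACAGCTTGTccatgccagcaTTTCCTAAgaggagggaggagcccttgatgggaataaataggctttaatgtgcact
Mt1: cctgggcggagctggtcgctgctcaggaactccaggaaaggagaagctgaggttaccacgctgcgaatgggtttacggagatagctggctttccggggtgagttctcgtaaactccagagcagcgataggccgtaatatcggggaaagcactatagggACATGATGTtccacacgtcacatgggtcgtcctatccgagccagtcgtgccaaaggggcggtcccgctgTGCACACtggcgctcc
Mt2: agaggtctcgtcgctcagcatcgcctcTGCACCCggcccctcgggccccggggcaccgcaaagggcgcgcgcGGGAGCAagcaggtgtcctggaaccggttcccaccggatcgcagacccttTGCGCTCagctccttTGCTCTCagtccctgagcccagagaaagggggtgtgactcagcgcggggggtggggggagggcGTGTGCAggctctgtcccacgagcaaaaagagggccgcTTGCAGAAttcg

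*Lcn2* and *Serpina3n*, on opposite sides of 1 in counts, both held 1 glucocorticoid receptor core, and they held 1 and 2 C/EBP cores. Within its printed window *Mt1* held 1 metal response element core and 1 glucocorticoid receptor core. The window of *Mt2* held 5 metal response element cores and 1 C/EBP core. Bases outside the windows, among them those past the window ends, were not searched, so these numbers do not compare the whole promoters. The STAT core was in none of these 4 windows, which says only that its letters are not there. RefSeq windows were matched for 31 of the 36 genes, all but *C4b*, *Sox9*, *Aqp4*, *Clu* and *Atp1b2*. The glucocorticoid receptor core was found in 5 of the 31 (*Glul*, *Lcn2*, *Mt1*, *Serpina3n* and *Slc1a2*), beside 5.84% of all 32851 windows of 250 bases. The C/EBP core was in 17 of 31, beside 36.8%, the metal response element core in 19, beside 44.4%, and the STAT core in 4, beside 7.02%. A match of letters is not a bound site.

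**Figure D2:**
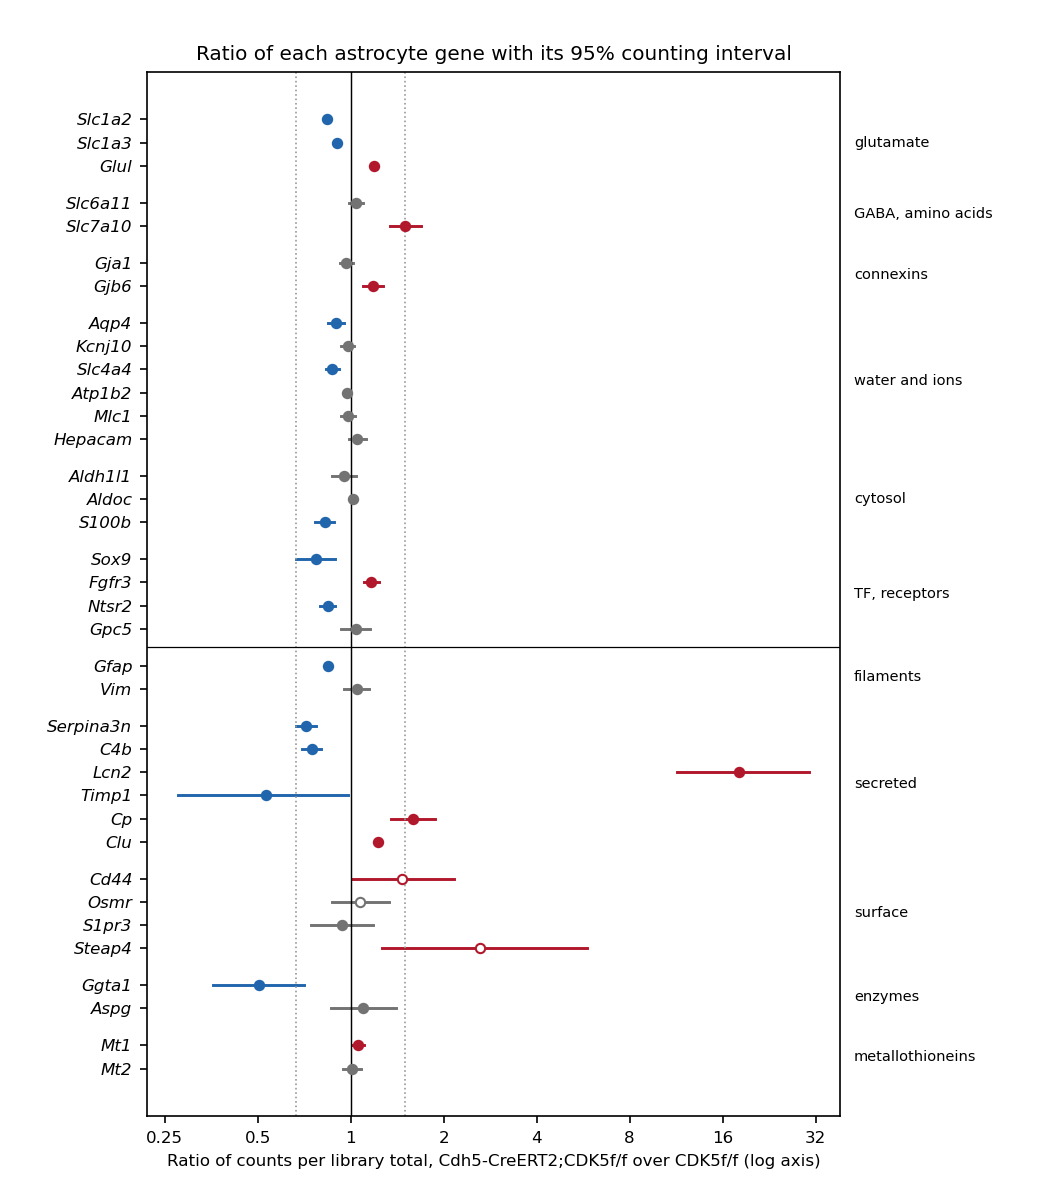
Ratio of counts per library total, *Cdh5-CreERT2;CDK5f/f* over *CDK5f/f*, for each gene on a log axis, with bars for the exact 95% counting interval (red above 1, blue below 1, grey holding 1), open points for genes under an FPKM of 1 and dotted lines at 1.5-fold. *Lcn2* stands apart at 18.0, while *Slc7a10* at 1.5 has the highest ratio and *Sox9* at 0.771 the lowest among the homeostatic genes.

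Among the homeostatic genes, those of the glutamate cycle split. *Slc1a2*, the gene of the main glutamate transporter GLT1, had 44163 counts in the mutant library and 54180 in the control library, at an FPKM of 178 and 212. It was lower in the mutant library at a ratio of 0.839 (0.828 to 0.85). *Slc1a3*, the gene of the second astrocyte transporter GLAST, was lower as well, with 8822 counts in the mutant library and 10089 in the control library (0.9, interval 0.874 to 0.926). *Glul*, the gene of glutamine synthetase, which converts the glutamate taken up into glutamine, went the other way. It had 26853 counts in the mutant library and 23219 in the control library, at an FPKM of 376 and 316, a ratio of 1.19 (1.17 to 1.21), and it was the most abundant gene of the list per length in both libraries. Its processed copy *Glns-ps1*, 96.8% identical over 1126 bases, held 50 counts in the mutant library and 121 in the control library, which are few beside those of *Glul*.

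*Slc7a10*, the gene of the small neutral amino acid transporter Asc-1, had the largest gap of the homeostatic genes. It had 759 counts in the mutant library and 520 in the control library, at an FPKM of 19.02 and 12.66, a ratio of 1.5 (1.34 to 1.68) and a log2 ratio of 0.55, just inside the 1.5-fold limit. *Slc7a10* shares 377 exon bases (17.9% of its exons) with *Lrp3* on the opposite strand, which had 1981 counts in the mutant library and 2049 in the control library, so reads of these 2 genes may be mixed. *Slc6a11*, the gene of the astrocyte GABA transporter GAT3, had 3024 counts in the mutant library and 2989 in the control library, and its interval of 0.99 to 1.1 held 1.

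The gap junction genes differed from each other. *Gjb6*, the gene of connexin 30, had 1451 counts in the mutant library and 1264 in the control library, higher in the mutant at a ratio of 1.18 (1.09 to 1.27). *Gja1*, the gene of connexin 43, had 3158 counts in the mutant library and 3357 in the control library, a ratio of 0.968 whose interval (0.922 to 1.02) held 1.

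Of the 6 genes of water and ion transport and the membrane complex, 5 had a ratio under 1 and 0 had an interval above 1. Their summed counts were 21128 in the mutant library and 22661 in the control library, a ratio of 0.96 (0.942 to 0.978). *Aqp4*, the water channel gene of endfeet, had 2056 counts in the mutant library and 2360 in the control library, at a ratio of 0.897 (0.845 to 0.952). *Slc4a4*, the gene of a sodium bicarbonate cotransporter, had 2806 counts in the mutant library and 3310 in the control library (0.872, interval 0.829 to 0.918). These were the 2 genes of this group whose intervals lay below 1, where 17.9% of all genes measured lay below 1 and 19.7% above. Intervals held 1 for the other 4. The potassium channel gene *Kcnj10* (Kir4.1) had 3323 counts in the mutant library and 3498 in the control library, and *Atp1b2*, the sodium pump beta subunit gene of astrocytes, had 8196 and 8646. *Mlc1* and *Hepacam*, whose products form a membrane complex at astrocyte junctions, had 2815 and 1932 counts in the mutant library against 2951 and 1896 in the control library.

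Of the cytosolic proteins, *Aldh1l1*, a folate enzyme gene, had 977 counts in the mutant library and 1059 in the control library, and *Aldoc*, the gene of the glycolytic enzyme aldolase C, had 15228 and 15418. Both intervals held 1. *S100b*, a calcium-binding protein gene, was lower in the mutant library, with 1453 counts in the mutant library and 1814 in the control library, at a ratio of 0.824 (0.769 to 0.884). It overlaps *Dip2a* on the opposite strand, which had 2577 and 2347 counts, and shares no exon base with it.

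*Sox9*, the gene of a transcription factor of the astrocyte lineage, had 334 counts in the mutant library and 446 in the control library, at an FPKM of 4.27 and 5.54. Its ratio of 0.771 (0.667 to 0.89) was the lowest of the 20 homeostatic genes. *Ntsr2*, a neurotensin receptor gene, was lower in the mutant library too, with 2310 counts in the mutant library and 2824 in the control library (0.842, interval 0.796 to 0.89). *Fgfr3*, a fibroblast growth factor receptor gene, was higher, with 2625 counts in the mutant library and 2315 in the control library (1.17, interval 1.1 to 1.23). *Gpc5*, a surface proteoglycan gene, had 701 counts in the mutant library and 696 in the control library, and its interval of 0.932 to 1.15 held 1.

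All 20 homeostatic genes were measured, and 0 passed 1.5-fold in either direction. Their median log2 ratio was -0.03, with a range of -0.31 to 0.55, and intervals lay above 1 for 4, below 1 for 7 and held 1 for 9. Over all genes measured, 19.7% of intervals lay above 1 and 17.9% below. Of the 19 homeostatic genes with at least 1000 counts, 4 lay above 1 and 6 below, beside 22.4% and 21.8% of all such genes. Summed, the 20 homeostatic genes had 132986 counts in the mutant library and 142851 in the control library, a ratio of 0.958 (0.951 to 0.965). *Slc1a2* alone held 44163 of these counts in the mutant library and 54180 in the control library. Without *Slc1a2*, left out after its value was seen, the other 19 had 88823 counts in the mutant library and 88671 in the control library, and the ratio of 1.03 (1.02 to 1.04) lay on the other side of 1. *Glul*, which was higher in the mutant library, held 26853 of the 88823 and 23219 of the 88671. The sum without both genes was not tested. Of all 20 homeostatic genes, 8 had a ratio over 1 and 12 had a ratio under 1.

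**Figure D3:**
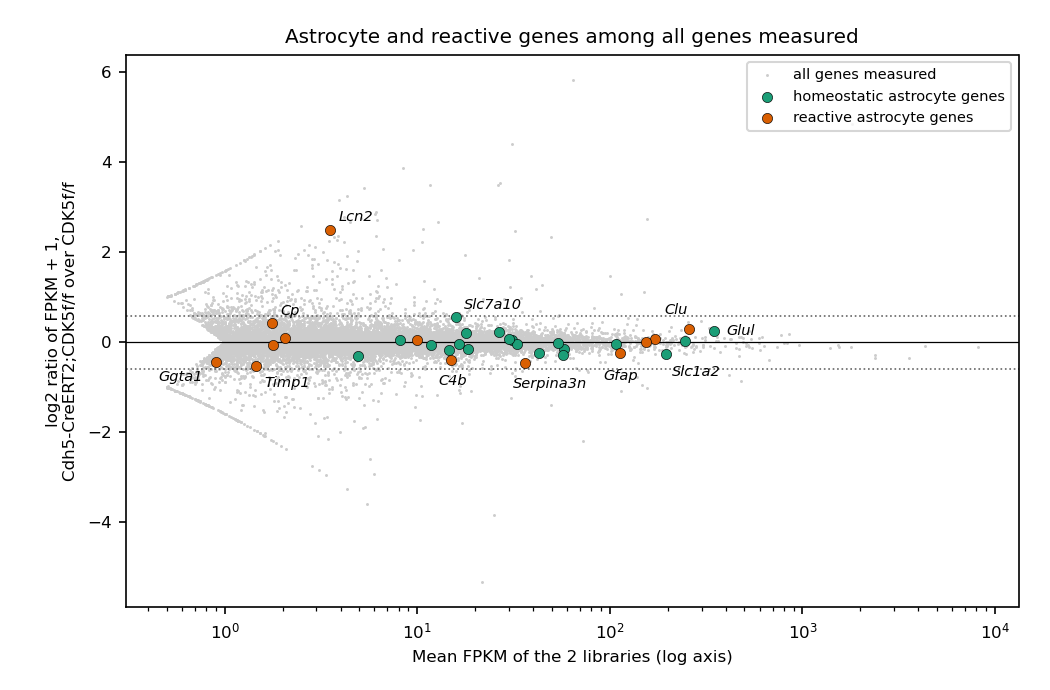
Each point is a gene measured, with the mean FPKM of the libraries on a log axis across and the log2 ratio of FPKM + 1, *Cdh5-CreERT2;CDK5f/f* over *CDK5f/f*, up, and with dotted lines at 1.5-fold. Homeostatic (green) and reactive (orange) genes lie between the lines except *Lcn2*, at 2.49.

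The spread of all genes gives a scale for these ratios. The middle 95% of the 14778 genes measured ran from -0.68 to 0.73 in log2 ratio, and 1 of the 33 genes of the list, *Lcn2*, fell outside it. Genes with an FPKM of at least 5 had a narrower middle 95%, from -0.41 to 0.52 over 8423 genes. Of the 28 genes of the list at that level, 3 fell outside: *Lcn2* and *Slc7a10* above and *Serpina3n* below. The ratios of *Gfap*, *Slc1a2* and *Glul*, although beyond counting error, lay inside this range.

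A second list of 36 astrocyte genes, not among those above, had 32 measured, with 0 past 1.5-fold in either direction and a median log2 ratio of 0.04. Its intervals lay above 1 for 14 of the 32 and below 1 for 5, beside 19.7% and 17.9% of all genes measured, and the difference between this list and the homeostatic genes was not tested. A second list of 32 reactive genes had 16 measured, with 3 past 1.5-fold higher, 0 past 1.5-fold lower and a median of 0.08. Over all genes measured, 3.65% were past 1.5-fold higher and 3.16% lower. The intervals of this reactive list lay above 1 for 7 of the 16 and below 1 for 2, beside 19.7% and 17.9% of all genes measured. Its ratio of summed counts was 1.09 (1.05 to 1.13), and its difference from the reactive genes of the first list was not tested. *H2-T23*, a nonclassical MHC class I gene, had 102 counts in the mutant library and 1 in the control library, a ratio of 105 whose interval ran from 18.4 to 4186. Another MHC class I gene of this list, *H2-D1*, had 926 counts in the mutant library and 986 in the control library, and its interval of 0.883 to 1.06 held 1. The MHC class I genes are alike in sequence, and no search for copies of *H2-T23* was made. *Hspb1*, a small heat shock protein gene, had 233 counts in the mutant library and 148 in the control library (1.62, 1.31 to 2), and *Serping1*, the gene of the C1 inhibitor of complement, had 232 and 140 (1.71, 1.38 to 2.12). *H2-T23*, *Hspb1* and *Serping1* were the 3 past 1.5-fold.

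Upstream of reactivity, a list of 20 ligand, receptor and signalling genes had 13 measured, with 1 past 1.5-fold higher, 0 past 1.5-fold lower and a median of 0.12. Intervals lay above 1 for 6 of the 13, below 1 for 1 and held 1 for 6. Over all genes measured, 19.7% lay above 1 and 17.9% lay below. *Socs3*, the feedback inhibitor that STAT3 induces, was the 1 gene past 1.5-fold, with 83 counts in the mutant library and 35 in the control library, a ratio of 2.44 (1.63 to 3.73). *Stat3* itself had 1171 counts in the mutant library and 1093 in the control library, a ratio of 1.1 (1.01 to 1.2). *Lifr*, the gene of a receptor for leukemia inhibitory factor, a cytokine of the interleukin 6 family, was the 1 gene whose interval lay below 1, with 1037 counts in the mutant library and 1311 in the control library (0.814, interval 0.75 to 0.884). The receptor gene *Il6st* of the same list was higher, with 1829 and 1636 (1.15, interval 1.08 to 1.23). *Cntfr*, another receptor gene of the list, had 1237 and 1295, and its interval of 0.909 to 1.06 held 1. The cytokine gene *Il6* had 0 counts in both libraries. Other ligand genes were rare, with 16 counts in the mutant library and 15 in the control library for *Lif* and 1 and 3 for *Osm*. *Cntf* had 9 and 1, with an interval of 1.28 to 406. Of the ligands that drive the A1 form of reactive astrocytes in culture, *Il1a* had 9 counts in the mutant library and 13 in the control library, and *Tnf* had 4 and 2. *C1qa* had 741 and 627, a ratio of 1.22 (1.09 to 1.35) and a log2 ratio of 0.27. Of the genes of the other C1q chains, *C1qb* had 500 and 591, a log2 ratio of -0.19. *C1qc* had 460 and 478, a log2 ratio of -0.01. *Il6*, *Il1a* and *Tnf* were too rare for a difference to be seen at this depth.

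**Figure D4:**
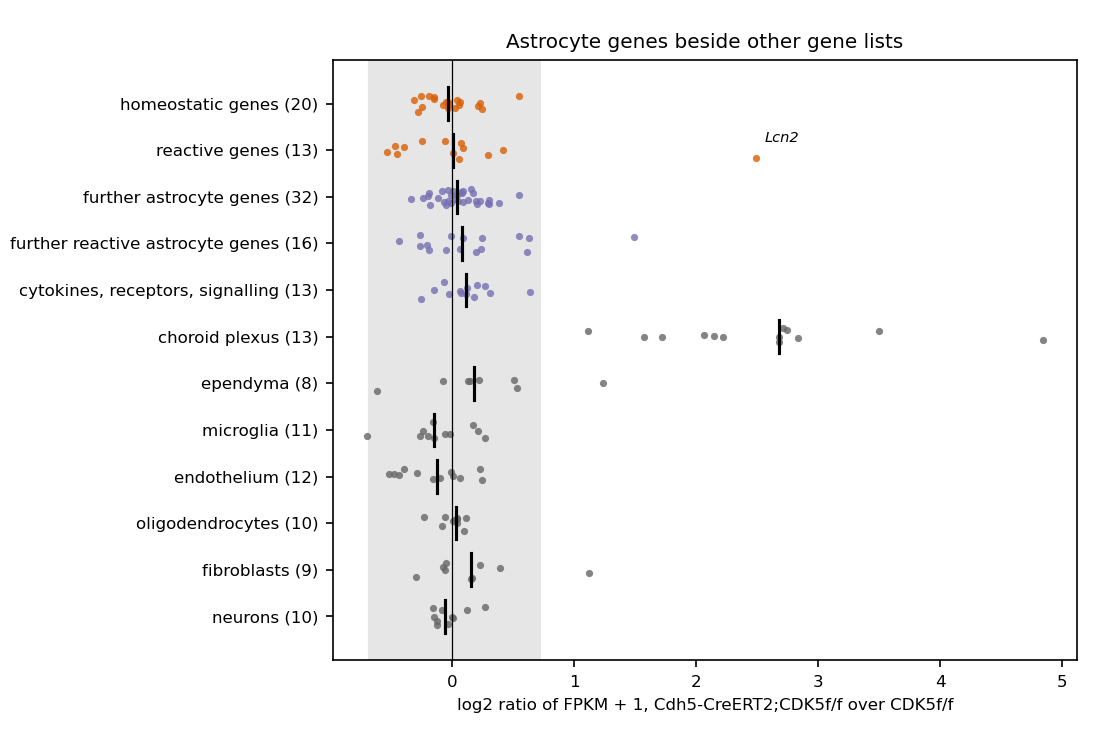
Log2 ratio of FPKM + 1, *Cdh5-CreERT2;CDK5f/f* over *CDK5f/f*, for each gene measured (points) in the lists named at the left with their number of genes, with bars for list medians and grey for the middle 95% of all genes measured. The homeostatic and reactive lists centre at -0.03 and 0.01, and the choroid plexus list at 2.68.

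Lists of other cell types gave the surroundings of these values. Neuronal (10 measured, median -0.06) and oligodendrocyte (10 measured, 0.03) genes had 0 past 1.5-fold. Intervals of the neuronal genes lay above 1 for 2 and below 1 for 5. The ratio of their summed counts was 0.9435 (0.9377 to 0.9494). For the oligodendrocyte genes, 3 intervals lay above 1 and 3 below, with a ratio of sums of 0.994 (0.985 to 1.002). Of 12 endothelial genes, 0 passed 1.5-fold and the median was -0.13. Intervals lay above 1 for 2 of the 12 and below 1 for 5, with a ratio of sums of 0.991 (0.959 to 1.02). Microglia had 11 measured and a median of -0.15, with 1 past 1.5-fold lower, the calcium-binding protein gene *Aif1*, at 101 counts in the mutant library and 187 in the control library. Of the 11 intervals, 2 lay above 1 and 4 below, with a ratio of sums of 0.985 (0.953 to 1.02). Over all genes measured, 19.7% lay above 1 and 17.9% below. The ependymal list had 8 measured, with 1 past 1.5-fold higher (*Mia*, 35 counts in the mutant library and 4 in the control library) and 1 lower by that measure (*Tmem212*, 25 and 47). Its median was 0.18, with 4 of 8 intervals above 1 and 1 below, beside 19.7% and 17.9% of all genes measured. Its ratio of summed counts was 1.23 (1.15 to 1.31). The fibroblast list had 9 measured, a median of 0.15 and 1 past 1.5-fold higher (*Igf2*, 324 and 93). Of these 9, 5 had a ratio over 1 and 4 had a ratio under 1. Its summed counts, with those of *Igf2* included, were 3238 in the mutant library and 3030 in the control library. That ratio was 1.1 (1.05 to 1.16), and the sum without *Igf2* was not tested. The part of these cell types in the values of the astrocyte genes was not tested. The choroid plexus list stood apart with 13 of 13 genes past 1.5-fold higher.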

How the data were processed

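Poly(A) or rRNA-depleted RNA (the labels name both kits) of 2 hippocampal samples was sequenced as 1 library per genotype. The authors deposited raw counts per gene, exonic lengths (another unit, in bases) and FPKM. FPKM recomputed from the deposited counts and lengths matched theirs within rounding in 55573 rows. Tools named in the processing notes of the submitters are HISAT2 2.0.1, HTSeq 0.6.1, DESeq2 and cutadapt 1.9.1, with mm9 as the build. The coordinates nevertheless match GRCm38: of 55394 gene IDs shared with GENCODE M21, 55181 have the same start and end, as do all 36 genes described here. The handling of strand and of reads with several matches was not given in the sources used here.

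Library totals were 18900847 counts in the mutant library and 19451827 in the control library. Genes whose FPKM reached 1 in the mutant or the control library were kept, and log2 ratios were taken on FPKM + 1. A pseudocount of 1 shrinks the ratios of weak genes. Count ratios were scaled by library totals and given exact 95% Clopper-Pearson intervals, which cover counting error only. Without molecular identifiers, PCR copies are not independent molecules. With 1 library per genotype there was no test.

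All 36 genes are named. From every other list up to 4 genes past 1.5-fold with at least 20 counts are named, those with the largest ratios, and *C4a*, *Mt3*, *Xist* and *Cdk5* are given as checks. From the choroid plexus list, no single gene is reported here. Other genes, among them *Stat3*, *Il6*, *Il1a*, *Tnf*, *Lifr* and the C1q genes, overlapping genes and copies, were picked with their values in view. The genes and lists were chosen with earlier results of these data known. Where a symbol had several rows, the row with more counts was used.

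Alternatives were other pseudocounts, other FPKM minimums, TMM factors (edgeR 4.0.16), median-of-ratios size factors (DESeq2 1.42.0, R 4.3.3) and library totals without choroid plexus genes, as well as *Gfap* counted as homeostatic and the reactive genes without *Mt1* and *Mt2*. Copies were searched with BLAST 2.17.0 with a minimum of 95% identity, 200 bases and 50% of the shorter transcript. Steps were tested on simulated data. Computations used Python 3.11.15, numpy 2.4.6, pandas 2.3.3, scipy 1.17.1 and matplotlib 3.10.9.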

Additional observations from a re-analysis of the deposited data

How the results depend on the processing

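Of the 33 genes measured, 1 was higher and 0 were lower past 1.5-fold on the log2(FPKM + 1) scale. With a pseudocount of 0.1, 2 were higher (*Lcn2* and *Cp*) and 2 were lower (*Timp1* and *Ggta1*), and with 0.5 again 2 were lower (*Timp1* and *Ggta1*), since a smaller pseudocount shrinks weak genes less. Over all genes the counts of 539 higher and 467 lower became 929 and 807 with a pseudocount of 0.1, and 167 and 126 with an FPKM minimum of 5. Of 181 alternative values of single genes, 174 stayed within the counting interval, 7 moved past it and 0 changed direction. *Lcn2* read 3.86 with a pseudocount of 0.1 and 3.05 with 0.5, against 2.49. Scaling by TMM, by size factors or without choroid plexus genes left *Lcn2* as the only gene of the list past 1.5-fold. The reactive median of 0.01 ranged from -0.06, without *Mt1* and *Mt2*, to 0.05, with no FPKM minimum. It was 0.03 with *Gfap* counted as homeostatic and -0.02 without *Lcn2*, so its sign depends on these choices. The homeostatic median of -0.03 ranged from -0.04 to -0.03. The alternative without *Lcn2* and the *C4a* sum were chosen after seeing the data. No paired analysis was possible because each genotype has 1 library.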

Other observations

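Ratios between genes within a library do not depend on how the libraries are scaled. These pairs were chosen after their values were seen, and the approximate 95% intervals cover counting error only. *Glul* had 0.608 counts per count of *Slc1a2* in the mutant library and 0.429 in the control library, a ratio of 1.42 (1.39 to 1.45). *Gjb6* had 0.46 counts per count of *Gja1* in the mutant library and 0.377 in the control library, a ratio of 1.22 (1.12 to 1.34). *Clu* had 2.25 counts per count of *Gfap* in the mutant library and 1.54 in the control library (1.46, interval 1.41 to 1.51). *Serpina3n* had 0.144 counts per count of *Gfap* in the mutant library and 0.169 in the control library (0.85, interval 0.785 to 0.921), so it was lower relative to *Gfap* as well. *Mt1* per *Mt2* was 2.4 in the mutant library and 2.3 in the control library, and its interval of 0.966 to 1.13 held 1.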
